A study of Homo sapiens with 6 samples.

Results

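The nuclear-encoded subunits of the mitochondrial respiratory chain were followed in K562 cells, a cell line that was derived from a human leukemia and has erythroid features, in which isoforms of the transcription factor C/EBPα were induced. Members were taken by gene symbol, as the rows named NDUFA, NDUFB, NDUFC, NDUFS or NDUFV plus a number, SDHA to SDHD, UQCR, CYC1, COX4 to COX8 and ATP5, without symbols of pseudogenes. This gave 64 genes of the 17066 symbols in the 3 deposited tables. Every member was listed in all 3 tables, with the same value for a group in each. Of the 64, 25 belonged to complex I, 3 to complex II, 8 to complex III, 11 to complex IV and 14 to complex V, and the other 3 (ATP5S, ATP5SL and COX7A2L) carry such a name without being a structural subunit. A further 22 subunit genes, among them NDUFV2, NDUFS1, NDUFS8, SDHD, COX6A1, COX8A and ATP5O, were not analysed here, and none of the mitochondrially encoded subunits was.

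There were 6 samples of K562 cells, 2 biological replicates in each of 3 groups. All cells carried a stably inserted PiggyBac transposon with a doxycycline-inducible promoter, which held wild-type C/EBPα in the CEBPA group, the shorter C/EBPα-p30, which lacks the N-terminal activation domain, in the P30 group, and no insert in the control (CTR) group. All 3 groups received 200 ng/ml doxycycline over 48 h, so that there was no group without the drug. Doxycycline is an antibiotic that is also known to inhibit mitochondrial translation, and this exposure was shared by every group compared. Whether a line was 1 clone or a pool is not given in the sources used here. The authors deposited FPKM, that is, fragments per kilobase of transcript and per number of mapped fragments, as 1 value per gene and group with the replicates pooled. No spread between replicates, interval or p-value could therefore be given for any value below, and depth per sample is not known from the files. Changes are differences of log2(FPKM + 1), which understate the change of genes with low FPKM, and a gene was called higher or lower when it differed by at least 1.5-fold on that scale. The level of CEBPA itself was not analysed here.

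Lineage markers differed between the groups. The transferrin receptor gene TFRC had 133 FPKM in CTR cells, 145 in P30 and 134 in CEBPA cells, whereas the erythroid transcription factor GATA1 had 185, 193 and 53.1 FPKM. Of 7 erythroid markers with a row, 6 were called lower in CEBPA than in CTR cells, with a median change of -1.64. Of 8 granulocyte markers, 7 were called higher, and S100A8, a calcium-binding protein of granulocytes, went from 0.551 FPKM in CTR to 9.54 in P30 and 3731 in CEBPA cells. Markers of other blood cells lay at or below 6.61 FPKM in every group, with CD3D as the highest. These changes of lineage genes moved with the comparisons below, and their part in them was not tested. In bulk RNA, fewer cells of a type and less RNA per cell cannot be told apart.

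The respiratory chain passes electrons from NADH, at complex I, and from succinate, at complex II, through complex III to oxygen at complex IV, and complexes I, III and IV pump protons that drive ATP synthesis by complex V. All complexes but complex II combine subunits encoded in the nucleus with subunits encoded by mitochondrial DNA. Red cell precursors need mitochondria for heme synthesis, whereas mature granulocytes are known to rely mainly on glycolysis.

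The 64 genes were abundant in all groups, as the plot of FPKM by complex shows. In CTR cells the median was 158 FPKM, against 153 in P30 and 139 in CEBPA cells, and 61 of the 64 had over 30 FPKM in every group. The 3 below this level were COX6B2, COX7B2 and ATP5S. Summed over the 64 genes, FPKM came to 18784 in CTR cells, 17513 in P30 and 15411 in CEBPA cells, which was 2.85%, 2.62% and 2.53% of the FPKM of all rows. By complex, the genes of ATP synthase stood highest in CTR cells, with a median of 402 FPKM, followed by complex IV with 338, complex III with 155, complex I with 139 and complex II with 124 FPKM. The most abundant member was ATP5J2, the f subunit of ATP synthase, in CTR cells with 1271 FPKM, UQCRH, the hinge protein of complex III, in P30 cells with 1179 FPKM, and ATP5G3, a gene of the ATP synthase c subunit, in CEBPA cells with 1091 FPKM.

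**Figure D1:**
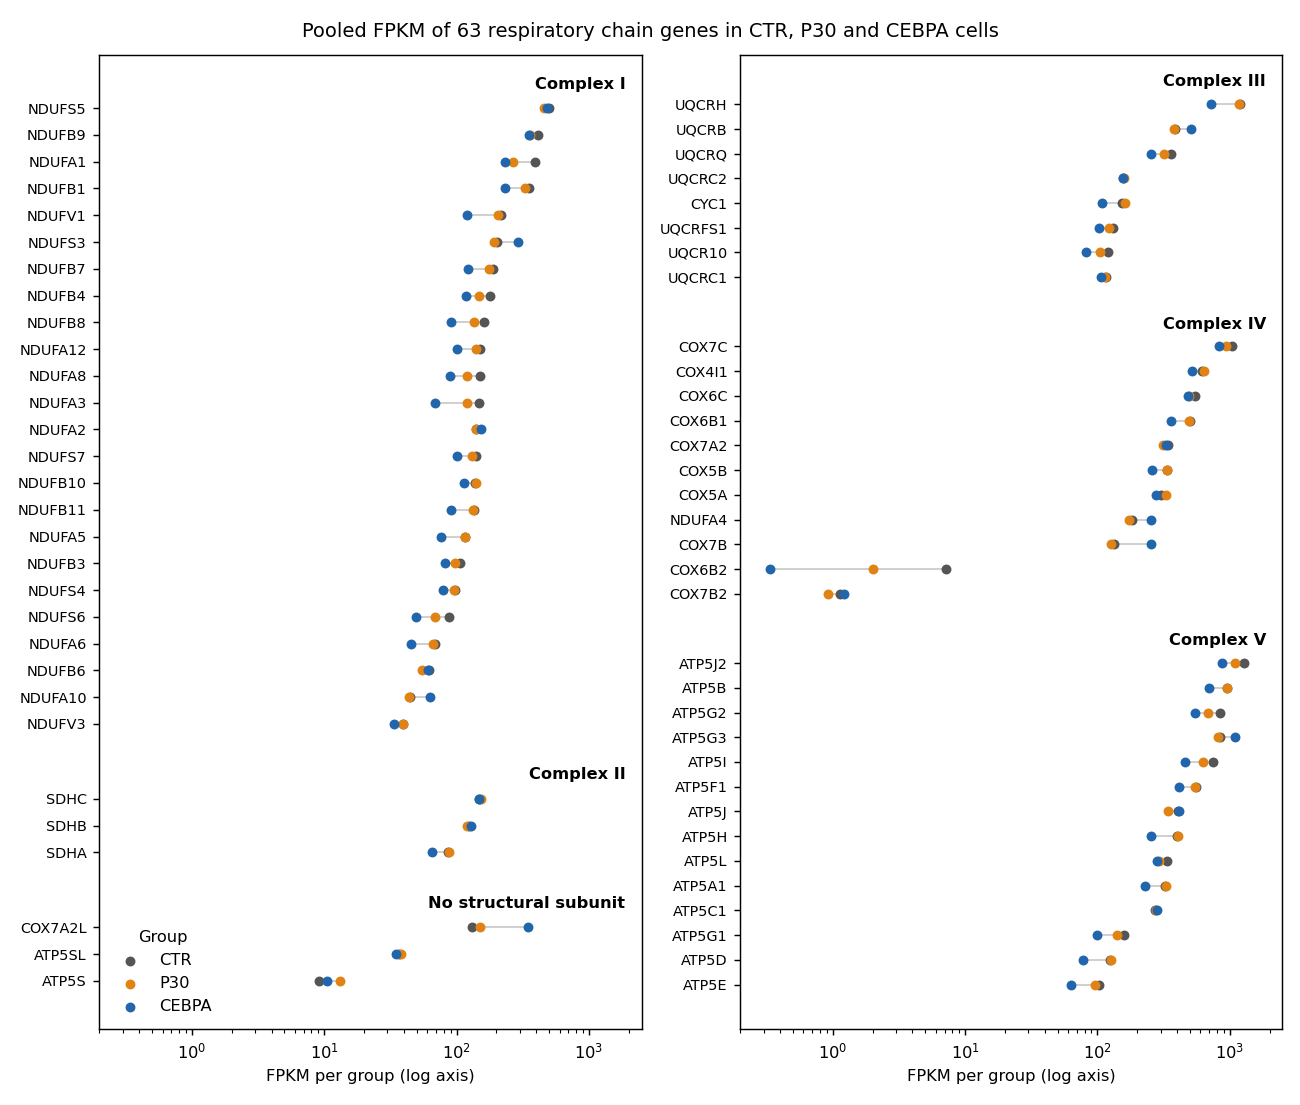
Pooled FPKM (log axis) of 63 of the 64 genes in CTR (grey), P30 (orange) and CEBPA (blue) cells, ordered within each complex by the level in CTR cells, with a line joining the lowest and the highest group. CEBPA was the lowest of the 3 groups for 48 of the 64 genes, and COX6B2, COX7A2L and NDUFA3 had the widest gaps on the log axis.

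In CEBPA cells most respiratory chain genes were lower than in CTR cells, by a modest amount and with a few exceptions in the other direction. Of the 64 genes, 51 were lower and 13 higher, and the median change was -0.39. Over all 13673 genes above 1 FPKM in either group, 50.5% were lower and the median change was -0.01, and among the 4323 genes above 30 FPKM in either 59.3% were lower and the median change was -0.16. At the 1.5-fold limit 18 of the 64 genes were called lower, which is 28.1%. The background was 18.6% of all genes and 23.0% of those over 30 FPKM, so that this share was not far above the latter. The level of 30 FPKM is a floor and does not match these genes to the members in abundance. The 2 genes called higher were COX7A2L and COX7B, against a background of 24.0% of all genes and 18.0% of those over 30 FPKM. The respiratory chain genes formed a narrower distribution than all genes, with a scaled median absolute deviation of 0.40 against 0.73, and few large changes either way, as the histogram of changes shows. CEBPA was the lowest of the 3 groups for 48 of the 64 genes, or 75.0%, against 46.7% of all genes and 57.6% of those over 30 FPKM.

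The size of this shift depended on the scaling. With the FPKM of each group rescaled to the same sum (1000000), the median of all genes moved up by 0.14, the members' median was -0.27 against 0.13 for all genes, 44 of the 64 were lower, 9 were called lower and 5 higher. Centred on the median of genes over 30 FPKM, an alternative chosen after seeing the data, 42 were lower, 7 were called lower and 5 higher. The shares of all genes called under these scalings were not computed, here or below. The backgrounds given are for FPKM as deposited and would shift with the scaling too, so these counts cannot be set against them.

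**Figure D2:**
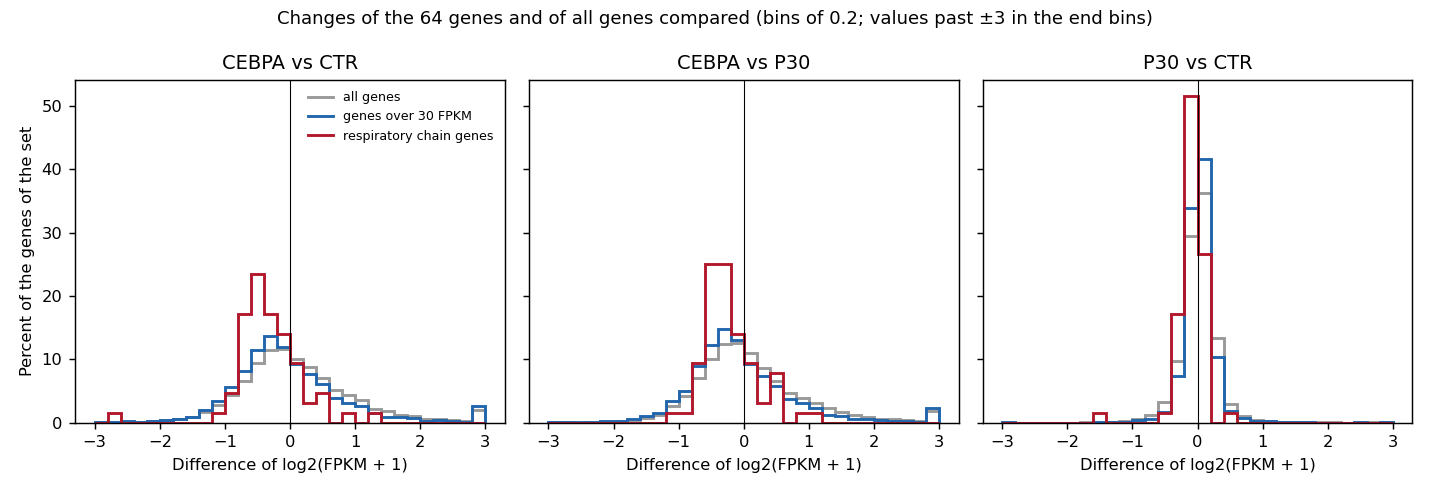
Percent of genes in bins of 0.2 of the difference of log2(FPKM + 1), for the 64 respiratory chain genes (red), all genes compared (grey) and genes over 30 FPKM (blue), in each pair of groups; values past the axis are counted in the end bins. In CEBPA vs CTR the members' median was -0.39, against -0.01 for all genes and -0.16 for genes over 30 FPKM, and in P30 vs CTR it was -0.06 against 0.02.

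To show what lies upstream of the members that differed most, the 250 bases before the annotated start are given for the 3 members with the lowest changes in CEBPA vs CTR among those with an entry, COX6B2, NDUFA3 and NDUFV1, and for COX7A2L and COX7B, the 2 called higher. The sequences are from RefSeq (GRCh38.p14), written 5′ to 3′ on the strand of the gene, and capitals mark matches to the motifs searched.
COX6B2 (chr19:55354720-55354969, minus strand): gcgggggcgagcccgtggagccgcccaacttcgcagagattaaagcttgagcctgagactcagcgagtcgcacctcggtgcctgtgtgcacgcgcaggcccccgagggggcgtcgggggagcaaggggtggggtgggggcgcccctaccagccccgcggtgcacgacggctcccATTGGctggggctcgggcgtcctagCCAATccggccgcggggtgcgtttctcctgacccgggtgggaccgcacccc
NDUFA3 (chr19:54102605-54102854, plus strand): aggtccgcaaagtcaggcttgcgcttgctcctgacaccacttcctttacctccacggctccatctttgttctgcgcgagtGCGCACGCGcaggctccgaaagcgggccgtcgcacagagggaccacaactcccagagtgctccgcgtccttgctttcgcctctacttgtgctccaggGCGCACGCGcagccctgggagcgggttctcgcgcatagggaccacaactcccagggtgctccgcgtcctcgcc
NDUFV1 (chr11:67606686-67606935, plus strand): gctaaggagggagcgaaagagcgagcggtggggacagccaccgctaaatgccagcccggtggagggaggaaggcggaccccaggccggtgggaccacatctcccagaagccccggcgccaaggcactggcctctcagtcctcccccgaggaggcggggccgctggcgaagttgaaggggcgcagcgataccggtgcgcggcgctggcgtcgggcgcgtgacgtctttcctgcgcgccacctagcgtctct
COX7A2L (chr2:42361218-42361467, minus strand): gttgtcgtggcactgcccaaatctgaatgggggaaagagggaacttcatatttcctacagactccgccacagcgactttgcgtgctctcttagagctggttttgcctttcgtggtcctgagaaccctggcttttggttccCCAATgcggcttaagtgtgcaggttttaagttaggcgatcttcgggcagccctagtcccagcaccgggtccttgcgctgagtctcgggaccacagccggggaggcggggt
COX7B (chrX:77899218-77899467, plus strand): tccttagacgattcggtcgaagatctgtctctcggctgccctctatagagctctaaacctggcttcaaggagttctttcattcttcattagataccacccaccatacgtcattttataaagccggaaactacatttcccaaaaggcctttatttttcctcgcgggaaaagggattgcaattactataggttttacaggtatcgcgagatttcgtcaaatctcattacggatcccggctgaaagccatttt
The motifs, searched on both strands, were GCGCANGCG for NRF1 (CGCNTGCGC on the other strand), CCGGAAGT for the ETS family including GABP (ACTTCCGG), AAGATGGC for YY1 (GCCATCTT), CCAAT for NF-Y (ATTGG) and TTGCNNAA for C/EBP (TTNNGCAA). NRF1 and GABP are known as activators of nuclear genes for mitochondrial proteins. NDUFA3 held 2 NRF1 matches, COX6B2 2 matches to CCAAT, 1 on each strand, and COX7A2L 1, while NDUFV1 and COX7B held none of these letters in this window.

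Over the 52 members with an entry, the NRF1 letters occurred upstream of 12, or 23.1%, against 8.41% of 22049 protein-coding promoters. With a further C required after the last base these were 8 members, or 15.4%, against 6.51%. The ETS letters occurred in 4 members (7.69% against 4.37%), those of YY1 in 1 (1.92% against 1.37%) and CCAAT in 19 (36.5% against 32.8%). The C/EBP letters occurred upstream of 3 members, ATP5L, NDUFB11 and NDUFS4, or 5.77% against 7.50%. The 12 members with the NRF1 letters had a median change of -0.52 in CEBPA vs CTR, and the others -0.37. With the further C these medians were -0.49 and -0.40. The difference was not particular to NRF1, since it was -0.57 with and -0.36 without CCAAT, and -0.57 and -0.37 for the ETS letters. Members with the C/EBP letters went the other way, with -0.30 against -0.43. A match of letters is a description of the sequence and not a binding site.

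Complex I, the NADH dehydrogenase, had the lowest median of the 5 complexes in CEBPA vs CTR, -0.57, with 22 of 25 genes lower. As deposited, 10 were called lower, or 40.0%, against 18.6% of all genes and 23.0% of those over 30 FPKM. With rescaled FPKM or centred on genes over 30 FPKM, only NDUFA1, NDUFA3, NDUFA8, NDUFB8, NDUFS6 and NDUFV1 were still called lower. The membrane arm, which pumps protons, had 13 of 14 genes lower with a median of -0.57, and the matrix arm, which takes electrons from NADH, 9 of 11 with a median of -0.48. NDUFA3, an accessory subunit of the membrane arm, had 148 FPKM in CTR cells, 120 in P30 and 68.5 in CEBPA cells, a change of -1.10 against CTR. Its gene lies at chr19:54606036-54612564 (GRCh37, plus strand), and its upstream sequence, with 2 NRF1 matches, is given above. NDUFV1, the core subunit that binds NADH, had 215, 207 and 120 FPKM in the same order, so that CTR and P30 lay close together and CEBPA apart (-0.84). NDUFB8, an accessory subunit of the membrane arm, had 161, 135 and 90.5 FPKM (-0.83), and NDUFS6, an accessory subunit of the matrix arm, 87.4, 69.3 and 49.7 FPKM (-0.80). Both showed P30 between the other groups. NDUFA1, a small membrane subunit encoded on chromosome X, had 393 FPKM in CTR cells, 265 in P30 and 231 in CEBPA cells, and here P30 lay nearer to CEBPA. The other genes called lower were NDUFA5, NDUFA6, NDUFA8, NDUFB4 and NDUFB7, with changes from -0.59 to -0.75.

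The complex I genes that were higher in CEBPA than in CTR cells were NDUFS3, NDUFA10 and NDUFA2. NDUFS3, a core subunit of the matrix arm, had 201 FPKM in CTR cells, 193 in P30 and 291 in CEBPA cells (0.53), and in the annotation it overlaps PTPMT1 on the same strand. NDUFA10, an accessory subunit of the membrane arm, had 44.6, 44.0 and 62.5 FPKM (0.48), and NDUFA2 139, 141 and 154 FPKM (0.14). None of the 3 reached the 1.5-fold limit against CTR as deposited, and NDUFS3 and NDUFA10 passed it with rescaled FPKM. Among the core genes, NDUFV1 (-0.84) and NDUFS7 (-0.45) were lower and NDUFS3 was higher.

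Complex II, succinate dehydrogenase, which also works in the tricarboxylic acid cycle, differed little. SDHA, the flavoprotein that oxidizes succinate, had 85.5 FPKM in CTR cells, 87.8 in P30 and 65.0 in CEBPA cells (-0.39). SDHB, the iron-sulfur subunit, had 124, 120 and 129 FPKM, and the membrane anchor SDHC 148, 154 and 148 FPKM. With only 3 genes, the complex had no gene past 1.5-fold, and its median, -0.00018, had no stable direction, since it was 0.11 with rescaled FPKM. SDHA is the gene of the 3 that stood apart.

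Complex III, the cytochrome bc1 complex, had 7 of 8 genes lower in CEBPA than in CTR cells and a median of -0.41. UQCRH had 1193 FPKM in CTR cells, 1179 in P30 and 725 in CEBPA cells (-0.72) and was the only gene of the complex called lower. Its P30 and CTR values lay close together (-0.02), and CEBPA lay apart. The electron-carrying subunits CYC1 (cytochrome c1) and UQCRFS1 (the Rieske iron-sulfur protein) had changes of -0.49 and -0.34. The core proteins UQCRC1 and UQCRC2 were at -0.12 and -0.02, and both values were within the shift that the choice of scaling makes. UQCRB, a small accessory subunit, was higher, with 387, 379 and 510 FPKM in CTR, P30 and CEBPA cells (0.40).

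Complex IV, cytochrome c oxidase, had the widest range of changes in CEBPA vs CTR, from -2.62 to 0.92, through COX6B2, a gene of low FPKM. The next lowest gene of complex IV was COX6B1, with -0.46. By the scaled median absolute deviation complex IV, with 0.32, was no wider than complex I, with 0.35. The median of complex IV in CEBPA vs CTR was -0.16, with 8 of 11 genes lower, and the median was 0.00 when centred on genes over 30 FPKM. COX7B, a subunit encoded on chromosome X (chrX:77154937-77162873, GRCh37, plus strand), had 133 FPKM in CTR cells, 127 in P30 and 253 in CEBPA cells (0.92). Over all genes, 15.8% were as high or higher in this comparison. NDUFA4, named for complex I and now counted with complex IV, had 182, 173 and 254 FPKM (0.48). The abundant subunits COX4I1, COX6B1 and COX7C had changes of -0.26, -0.46 and -0.34, none past 1.5-fold.

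COX6B2, an isoform of COX6B known from testis (chr19:55860674-55866087, GRCh37, minus strand), was the member with the largest change. It had 7.19 FPKM in CTR cells, 2.03 in P30 and 0.334 in CEBPA cells, a change of -2.62 in CEBPA vs CTR, with -1.44 for P30 vs CTR. The erythroid genes KLF1, with 160, 115 and 42.3 FPKM, and EPOR, with 42.2, 30.8 and 12.9 FPKM, had the same order of groups, and whether this is related was not tested. In P30 vs CTR 26 of 12395 genes were as low or lower, or 0.210%. The gene supplied 1.43% of the FPKM of COX6B1 and COX6B2 together in CTR, 0.412% in P30 and 0.0928% in CEBPA cells, and COX6B1 had 497, 490 and 360 FPKM. With a pseudocount of 0.1 in place of 1 the change of COX6B2 in CEBPA vs CTR was -4.07. The other isoform of this kind, COX7B2, stayed at 1.13, 0.914 and 1.22 FPKM.

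**Figure D3:**
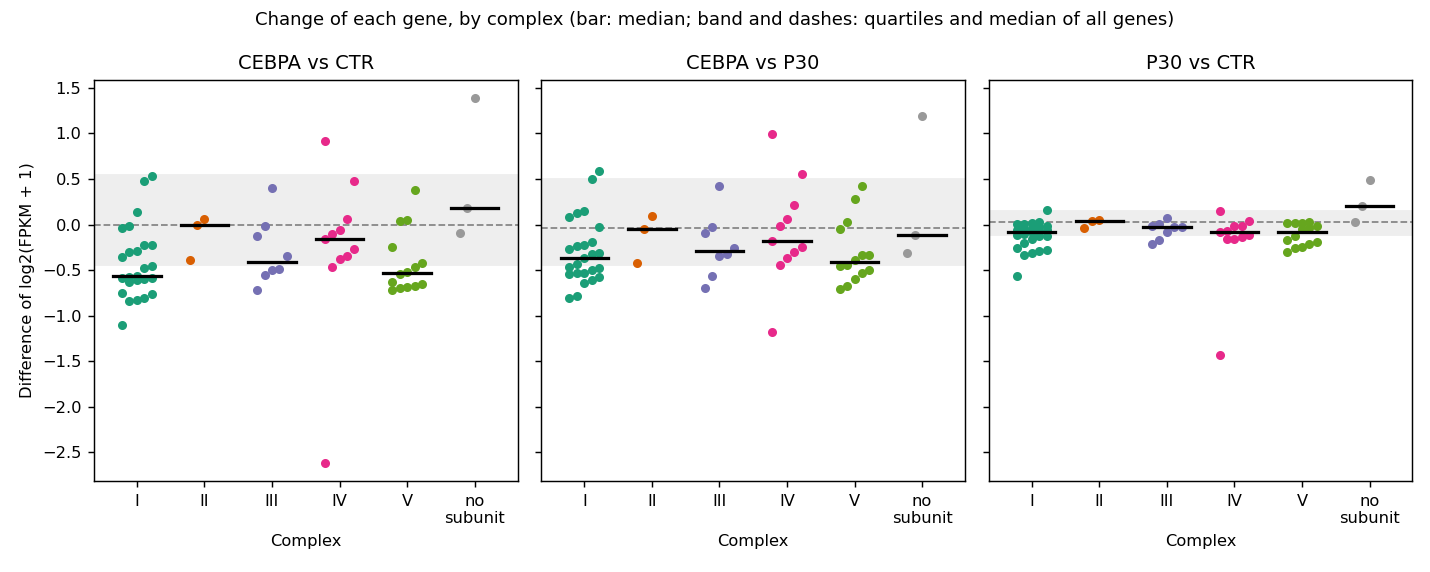
Difference of log2(FPKM + 1) of each gene (points) by complex in each pair of groups, with the median of the complex (bar), and the median (dashed) and quartiles (band) of all genes. Medians in CEBPA vs CTR were -0.57 for complex I and -0.53 for complex V, against -0.16 for complex IV, and in P30 vs CTR all 5 complexes lay between -0.09 and 0.04.

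Complex V, the ATP synthase, had 11 of 14 genes lower in CEBPA than in CTR cells and a median of -0.53. As deposited, 6 were called lower, or 42.9%, against 18.6% of all genes and 23.0% of those over 30 FPKM. With rescaled FPKM only ATP5E was still called lower, and centred on genes over 30 FPKM none was. In the catalytic F1 part, the α and β subunit genes ATP5A1 and ATP5B had changes of -0.52 and -0.46, and ATP5D (δ) and ATP5E (ε) were called lower with -0.68 and -0.71. ATP5E, the lowest of the complex, had 104, 95 and 62.7 FPKM in CTR, P30 and CEBPA cells. ATP5B had 955 FPKM in CTR cells, 947 in P30 and 693 in CEBPA cells. ATP5C1, the γ subunit that turns within the catalytic head, had 274, 278 and 283 FPKM. In the peripheral stalk ATP5H (d) was called lower, with 400 FPKM in CTR cells, 406 in P30 and 255 in CEBPA cells, ATP5F1 (b) was at -0.43 and ATP5J (F6) at 0.04. Among the small membrane subunits ATP5I (e) was called lower with 746, 626 and 459 FPKM, and ATP5J2 (f) and ATP5L (g) were at -0.54 and -0.24.

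The c subunits, which form the rotating ring, are encoded by ATP5G1, ATP5G2 and ATP5G3, whose mature proteins are known to be identical. ATP5G1 (chr17:46970127-46973233, GRCh37, plus strand) had 159 FPKM in CTR cells, 141 in P30 and 99.4 in CEBPA cells (-0.67). ATP5G2 (chr12:54026510-54071192, minus strand) had 840, 683 and 542 FPKM (-0.63). ATP5G3 (chr2:176040986-176046438, minus strand) had 838, 811 and 1091 FPKM (0.38), so that it went the other way. Summed, the 3 genes had 1838 FPKM in CTR cells, 1636 in P30 and 1733 in CEBPA cells, a log2 ratio of -0.08 between CEBPA and CTR, while their make-up differed. ATP5G3 supplied 45.6% of the sum in CTR, 49.6% in P30 and 63.0% in CEBPA cells, and ATP5G2 45.7%, 41.8% and 31.3%. The sum was 1.92 times the FPKM of ATP5B in CTR, 1.73 times in P30 and 2.50 times in CEBPA cells. These shares are ratios within a group and do not depend on the scaling between groups. They are not free of the trend with transcript length given below. The canonical transcript of ATP5G3 has 2587 nt, against 646 nt for ATP5G1 and 632 nt for ATP5G2. The part of length in these shares was not tested.

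Of the 3 genes that carry a subunit name without being structural subunits, COX7A2L (chr2:42560686-42652228, GRCh37, minus strand) was the gene with the largest higher value of all members. It encodes a factor that helps to join complexes III and IV into supercomplexes. It had 132 FPKM in CTR cells, 151 in P30 and 347 in CEBPA cells, a change of 1.39, and over all genes 8.36% were as high or higher. The related subunit gene COX7A2 had 342, 315 and 328 FPKM, so that the ratio of COX7A2L to COX7A2 was 0.385 in CTR cells, 0.480 in P30 and 1.06 in CEBPA cells. ATP5SL and ATP5S, whose current symbols are DMAC2 and DMAC2L, had 37.0, 37.8 and 34.7 FPKM and 9.19, 13.3 and 10.5 FPKM.

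**Figure D4:**
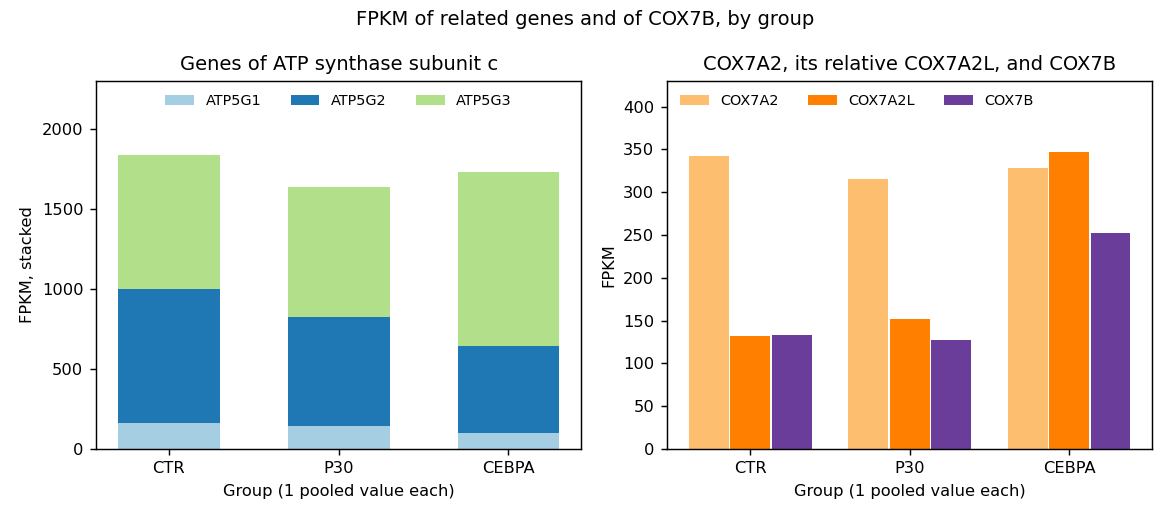
FPKM by group, from 1 pooled value each, of the 3 genes of the ATP synthase c subunit (left, stacked bars) and of COX7A2, COX7A2L and COX7B (right, bars from 0). The stacked sums were 1838, 1636 and 1733 FPKM while the share of ATP5G3 was 45.6% in CTR and 63.0% in CEBPA cells, and COX7A2L was above COX7A2 in CEBPA cells only.

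CEBPA and P30 cells differ in the form of C/EBPα inserted. For the CEBPA line the study's blot legend names both the full-length protein and p30. The study also reports that doxycycline arrested proliferation and brought granulocytic differentiation in CEBPA cells, without an effect on proliferation in P30 cells. In CEBPA compared with P30 cells, 49 of the 64 genes were lower and 15 higher, with a median of -0.32. Over all 13569 genes compared, 52.1% were lower with a median of -0.04, and over 4326 genes above 30 FPKM 61.7% with a median of -0.18. The genes called lower were 9, or 14.1%, against a background of 17.8% of all genes and 22.4% of those over 30 FPKM, so that calls were no more frequent among the members than among all genes. They included NDUFA3, NDUFA5 and NDUFV1 of complex I, UQCRH, COX6B2, and ATP5D, ATP5E and ATP5H of complex V. COX7A2L, COX7B and NDUFS3 were called higher, against a background of 22.3% and 16.2%, with changes of 1.19, 0.99 and 0.59. Medians by complex were -0.37 for complex I, -0.05 for complex II, -0.29 for complex III, -0.18 for complex IV and -0.41 for complex V, and that of complex II was 0.08 with rescaled FPKM. This comparison shares the CEBPA values with the preceding one, and the 2 are no independent measurements. With rescaled FPKM 3 genes were called lower and 5 higher, and centred on genes over 30 FPKM 3 and 7.

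In P30 compared with CTR cells few respiratory chain genes differed by much. The median was -0.06, against 0.02 for all 12395 genes compared and 0.02 for the 3891 genes over 30 FPKM, and 46 of the 64 genes were lower and 18 higher, against 44.9% and 44.5% lower in these backgrounds. At 1.5-fold COX6B2 alone was called lower, against a background of 2.63% of all genes and 1.52% of those over 30 FPKM, and no gene higher, against 2.69% and 1.75%. NDUFA1 was just under the limit (-0.57), and it passed when changes were centred on the median of all genes or FPKM were rescaled. ATP5S was highest, with 9.19 FPKM in CTR and 13.3 in P30 cells (0.48). Small differences of one sign ran through the membrane arm of complex I, where 13 of 14 genes were lower with a median of -0.14, against 7 of 11 with -0.05 in the matrix arm. All 3 c subunit genes and all 3 small membrane subunits of ATP synthase were lower too, from -0.05 for ATP5G3 to -0.30 for ATP5G2. Medians by complex were -0.08 for complex I, 0.04 for complex II, -0.03 for complex III, -0.08 for complex IV and -0.09 for complex V.

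In CEBPA vs CTR the changes moved with transcript length, among the members and among other genes over 30 FPKM. The canonical transcripts of 63 members had a median of 916 nt, from 303 nt for ATP5I to 8459 nt for UQCRB. Of the 32 members at or below the median length, 87.5% were lower in CEBPA than in CTR cells with a median change of -0.50, against 71.0% of the 31 longer ones with -0.24. Other genes over 30 FPKM had the same order, with 78.8% of 312 short ones lower and a median of -0.40, and 57.5% of 3600 longer ones with -0.13. In CEBPA vs P30 short and long members had medians of -0.33 and -0.26, against -0.36 and -0.17 for the other genes, so that the short members were no lower than other short genes. In P30 vs CTR 87.5% of the short and 54.8% of the long members were lower, against 61.4% and 42.5% of the other genes. Spearman's correlation between change and length across members over 63 genes was 0.32 for CEBPA vs CTR, 0.11 against P30 and, for P30 vs CTR, 0.46, which share the same libraries. Set against genes of like length, the medians of the members in CEBPA vs CTR differed by less than against all genes over 30 FPKM, and the part of length in the changes was not tested. With only the longer members, an alternative chosen after seeing the data, 7 of the 31 genes were called lower in CEBPA vs CTR.

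**Figure D5:**
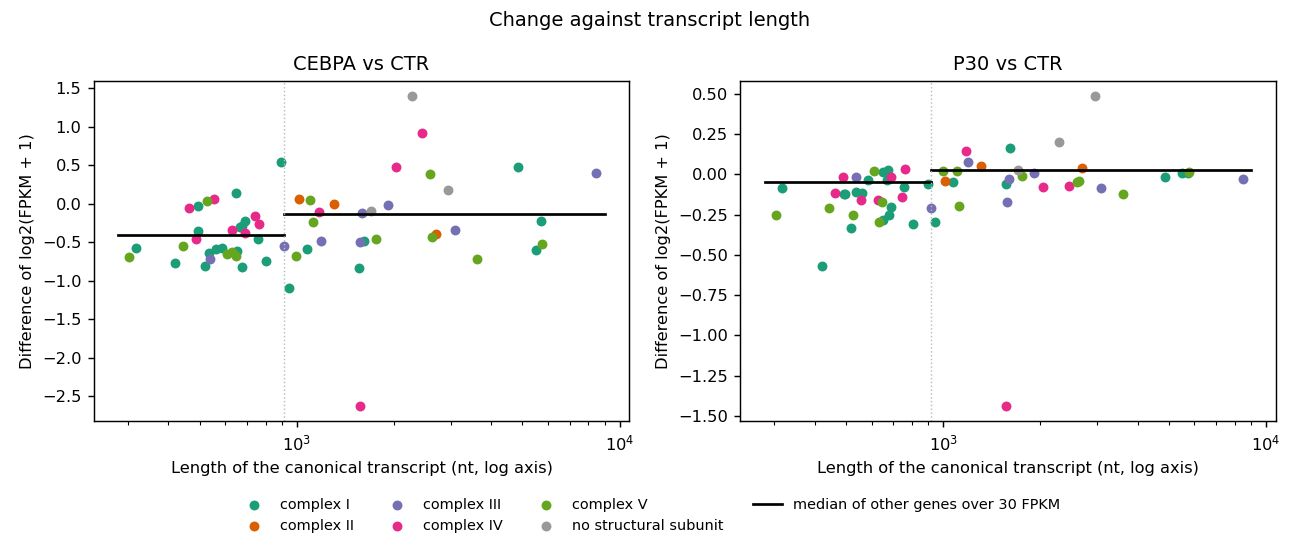
Difference of log2(FPKM + 1) against the length of the canonical transcript (log axis) for 63 members, coloured by complex, with CEBPA vs CTR on the left and P30 vs CTR on the right; black lines are the medians of the other genes over 30 FPKM on each side of 916 nt. In CEBPA vs CTR the medians of the other genes were -0.40 (short) and -0.13 (long), and those of the members -0.50 and -0.24.

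Many members share sequence with copies elsewhere in the genome, which could split or add reads in the authors' estimates. Of the 64, 41 had annotated pseudogenes, with 17 for COX6C, and 16 overlapped another gene on the same strand. Only pseudogenes named by the gene symbol plus P were counted, so that copies under other names were missed. The median change in CEBPA vs CTR was -0.39 for the 41 and -0.30 for the 23 without pseudogenes of such a name. Among the genes singled out above, ATP5G3, COX7A2L, COX6B2, NDUFA1 and ATP5I had none of these pseudogenes, whereas NDUFA3 had 5, COX7B 4, ATP5G1 8 and ATP5G2 5. ATP5G3 and COX6B2 each overlapped another gene on the same strand. The values of genes with copies, counted or not, or with an overlap are uncertain to the extent that reads were shared.

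Assembly factors, which build the complexes without being part of them, had a median change close to that of all genes. Of 36 with a row, 20 were lower and 16 higher in CEBPA than in CTR cells, with a median of -0.04. Of these 4 were called lower, or 11.1%, and 7 higher, or 19.4%, against the background of 18.6% and 24.0% of all genes. For complex I, 7 of 12 were higher and 4 called higher, among them NDUFAF7, a methyltransferase, with 13.2 FPKM in CTR cells, 13.3 in P30 and 31.9 in CEBPA cells (1.21), and NDUFAF2, with 44.2, 45.0 and 88.9 FPKM (0.99). NDUFAF3 was called lower with 29.7, 25.3 and 17.6 FPKM (-0.72). For complex IV, 10 of 18 were lower, with COX20 (-0.67) and COA1 (-0.60) called lower and COX10, COX11 and COX16 called higher. COX10, an enzyme of heme A synthesis, had 8.0, 8.98 and 15.0 FPKM (0.83). ATPAF2, a chaperone of the F1 part, was called lower with 12.5, 12.3 and 7.0 FPKM. In P30 vs CTR no assembly factor reached 1.5-fold, and of all genes only 2.63% were called lower and 2.69% higher.

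The transcription factors and coactivators that drive nuclear and mitochondrial genes of the chain were mixed. Of 11 with a row, 5 were lower and 6 higher in CEBPA than in CTR cells, with a median of 0.09. Of these 1 was called lower, or 9.09%, and 2 higher, or 18.2%, against 18.6% and 24.0% of all genes. The mitochondrial transcription factors TFB1M and TFB2M were called higher, with 15.9 FPKM in CTR cells, 17.1 in P30 and 33.6 in CEBPA cells for the first (1.04) and 24.0, 28.9 and 49.3 FPKM for the second (1.01). ESRRA, the estrogen-related receptor that activates respiratory chain genes, was called lower with 33.6, 34.3 and 18.9 FPKM (-0.79). NRF1 had 14.6, 13.9 and 13.7 FPKM, GABPA 12.1, 14.4 and 15.4 FPKM and TFAM 58.9, 74.4 and 67.3 FPKM, none past 1.5-fold. In P30 vs CTR none of the 11 reached 1.5-fold, where only 2.63% of all genes were called lower and 2.69% higher.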

How the data were processed

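The 6 K562 samples were 2 replicates each of CTR, CEBPA and P30, measured by RNA-seq. The authors deposited FPKM from Cuffdiff, for reads that TopHat had aligned to hg19 and Cufflinks had assembled on Gencode. The submitters' processing notes list CASAVA 1.4, TopHat2 2.0 and Cuffdiff. Each of the 3 tables holds 1 pooled FPKM per gene for a pair of groups. The replicates came from separate runs on different instruments, and which replicate came from which run, the normalization setting of Cuffdiff and the rule that selected the rows are not given in the sources used here. The labels and the paper name different RNA kits. Pooled FPKM hold no counts or replicate values, so that no interval, SD or test could be computed from them. The study states a read depth and a correlation between replicates, which give no error for a single pooled value and are not used here, and its own test calls are not used either.

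Each change is a difference of log2(FPKM + 1), taken among genes above 1 FPKM in either group of a comparison. Called means a difference of at least 1.5-fold on that scale. Upstream sequences are shown for the 3 lowest and 2 highest changes with an entry. Full values are given for the highest and lowest members of each complex, the largest differences of each comparison, related genes and the other lists, and further members are named with their values. Some genes counted among the members and lists are not reported here by name. The members and lists were chosen with earlier results of these data known. Symbols were matched to RefSeq, 47 directly and 17 by synonym. Positions and transcript lengths are from a later Gencode release on GRCh37 than the authors used, and upstream sequences from RefSeq on GRCh38.p14. The alternatives were a pseudocount of 0.1, centring, rescaled FPKM, filters, summed rows with the same symbol, structural subunits only and rows in all tables. The computations were tested on simulated data. Python 3.11.15, numpy 2.4.6, pandas 2.3.3 and matplotlib 3.10.9 were used.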

Additional observations from a re-analysis of the deposited data

How the results depend on the processing

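The medians over all members were lower than 0 in each comparison under every alternative run, from -0.43 to -0.23 when CEBPA was compared with CTR, from -0.33 to -0.13 against P30, and from -0.08 to -0.02 between P30 and CTR. Of 1952 recomputed values, 1933 stayed within the limits set, which were 0.20 on the log2 scale and 1.5 times for a count. For many of them this was fixed beforehand. The filters, the summed rows and the rows in all tables cannot change the value of a single member. Centring shifts all members alike, by less than that limit. The count is therefore no measure of how firm the values are. Counts at 1.5-fold moved more. With FPKM rescaled to the same sum (1000000), those called lower in these 3 comparisons were 9, 3 and 2 in place of 18, 9 and 1, and in the first 2 of them those called higher were 5 and 5 in place of 2 and 3. Centred on the median of genes over 30 FPKM, an alternative chosen after seeing the data, 7, 3 and 2 were called lower, and 5 and 7 higher. No background share was computed under these scalings. Centred on the median of all genes, 2 were called lower in P30 vs CTR. With structural subunits only, without isoforms restricted to other tissues, 1 was called higher in CEBPA vs CTR and 0 lower in P30 vs CTR, since COX7A2L and COX6B2 were left out by construction. With only longer members, 7 of 31 were called lower in CEBPA vs CTR, and part of this fall follows from the smaller set. COX6B2 was -4.07, -2.29 and -1.78 in the 3 comparisons with a pseudocount of 0.1. No paired analysis was possible because the columns hold pooled replicates, and for the same reason leaving out each replicate was not run. The pooled values carry no replicate spread or counts from which a limit on small differences could be computed.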

Other observations

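Genes that work beside the respiratory chain in mitochondria were described in the same way. Of 13 tricarboxylic acid cycle genes, 9 were lower and 4 higher in CEBPA than in CTR cells, with a median of -0.14. Of these 2 were called lower, or 15.4%, and 1 higher, or 7.69%. Both shares were below those of all genes, 18.6% and 24.0%. None of the 13 was past 1.5-fold in P30 vs CTR, where only 2.63% of all genes were called lower and 2.69% higher. IDH2, the NADP-dependent isocitrate dehydrogenase, had 64.9 FPKM in CTR cells, 71.5 in P30 and 21.9 in CEBPA cells (-1.52), and IDH3G, a subunit of the NAD-dependent enzyme, 38.1, 37.3 and 20.1 FPKM (-0.89). FH, fumarate hydratase, had 126, 130 and 271 FPKM (1.10), whereas SDHA, which makes its substrate, was lower (-0.39).

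Of 12 carrier, pore and import genes, 7 were lower and 5 higher, with a median of -0.10. Of these 1 was called lower, or 8.33%, and 2 higher, or 16.7%, against 18.6% and 24.0% of all genes. TIMM23, the channel of the inner membrane import machinery, had 117 FPKM in CTR cells, 115 in P30 and 346 in CEBPA cells (1.55). The ADP/ATP carriers went in opposite directions, with 603, 586 and 384 FPKM for SLC25A5 (-0.65) and 19.2, 21.2 and 29.6 FPKM for SLC25A4 (0.60). Of the subunits and partners that the name rule does not reach, NDUFAB1, C14orf2, CYCS and ATPIF1 had changes of -0.06, -0.25, -0.20 and -0.49 in CEBPA vs CTR. NDUFA4L2, a relative of NDUFA4 that the name rule does not take, had 1.40, 0.98 and 0.292 FPKM.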
